A study of Homo sapiens with 12 samples.

Results

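The regions described here are the nucleolus-associated domains (NADs) of human chromosome 21, the DNA that comes down with isolated nucleoli, in the established embryonic stem cell line H9, held in its naive or its primed pluripotent state. They are the entries of the 2 deposited region lists that lie on chromosome 21: 590 of 61750 naive regions and 60 of 29994 primed regions. RSeT medium kept H9 cells naive, mTeSR medium kept them primed, and neither state had a further treatment. Crosslinked cells were broken by sonication, the nucleoli were spun down, and DNA of that pellet and of whole cells was sequenced. The 12 libraries form 4 groups of 3: nucleolar DNA or whole-cell DNA of naive cells, and nucleolar DNA or whole-cell DNA of primed cells. The authors deposited 1 list per state, drawn from the 6 libraries of that state. A list therefore carries no spread between replicates, and every value below is a description of 2 lists from 1 cell line, with no test. Library depth, the settings of the region calls and the way of joining replicates were not given in the sources used here. A region is called where the submitters' procedure called it, so a difference between the lists cannot be told apart from a difference in depth, in settings or in the copy number of the chromosome between the cultures, which was not given either.

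The nucleolus forms around tandem arrays of ribosomal RNA genes, the 45S units from which the 18S, 5.8S and 28S rRNAs are processed. In humans these arrays sit on the short arms of the acrocentric chromosomes, and chromosome 21 is the smallest of them. Chromatin that gathers at the nucleolar surface is known for being rich in repressed, gene-poor and late-replicating DNA, and much of it also contacts the nuclear lamina. Chromosome 21 itself has a sharp internal contrast: the part of its long arm next to the centromere is gene-poor, and the part towards the telomere is gene-rich and holds most of the genes studied in Down syndrome. Distance from the ribosomal DNA and gene density thus run along the same axis.

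Coordinates are those of hg38, and regions start and end on a grid of 10 kb bins. Empty stretches of at least 500 kb, without any gene or region, were left aside: 5.01 Mb at the tip of the short arm (chr21:1-5010000) and 2.14 Mb around the centromere (chr21:10820001-12960000). That left 5.81 Mb of the short arm and 33.8 Mb of the long arm, 39.56 Mb in all. Distance was counted from the last annotated 45S unit, RNA45SN1 at chr21:8433222-8446572, and the long arm begins 4.51 Mb from it. The true arrays are longer than the few units placed in the assembly, so a distance is one along the assembly and not a physical length.

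The promoters of 4 genes show the kinds of sequence that fell in and out of the lists. Each is 300 bases of RefSeq sequence (GRCh38.p14), from 250 before to 50 after the gene's start, written from 5′ to 3′ on the gene's strand with each CpG dinucleotide in capitals. TPTE (chr21:10521333-10521632, plus strand), a testis-expressed phosphatase gene at the edge of the centromere, lay in both lists. KRTAP24-1 (chr21:30282901-30283200, minus strand), a keratin-associated protein gene of hair, was named for the largest difference towards the primed list, which it shares with other coding genes: 33 in all were at 0% naive and 100% primed. CFAP410 (chr21:44339341-44339640, minus strand), a gene for a protein of cilia, was named for the largest difference towards the naive list. C21orf140 (chr21:34401023-34401322, minus strand), an uncharacterised gene, lay in neither list.
TPTE: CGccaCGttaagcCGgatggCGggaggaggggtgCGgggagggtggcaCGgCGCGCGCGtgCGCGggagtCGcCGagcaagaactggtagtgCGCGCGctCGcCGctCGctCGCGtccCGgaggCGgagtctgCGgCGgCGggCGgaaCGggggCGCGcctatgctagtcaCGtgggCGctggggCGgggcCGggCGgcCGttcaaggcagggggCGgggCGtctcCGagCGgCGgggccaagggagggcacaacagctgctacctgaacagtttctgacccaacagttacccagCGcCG
KRTAP24-1: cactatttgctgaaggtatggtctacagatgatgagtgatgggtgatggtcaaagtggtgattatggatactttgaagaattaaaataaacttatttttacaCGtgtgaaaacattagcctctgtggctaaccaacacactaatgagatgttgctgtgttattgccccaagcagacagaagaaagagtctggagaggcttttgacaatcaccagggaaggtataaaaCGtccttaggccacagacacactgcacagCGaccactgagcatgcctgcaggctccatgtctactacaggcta
CFAP410: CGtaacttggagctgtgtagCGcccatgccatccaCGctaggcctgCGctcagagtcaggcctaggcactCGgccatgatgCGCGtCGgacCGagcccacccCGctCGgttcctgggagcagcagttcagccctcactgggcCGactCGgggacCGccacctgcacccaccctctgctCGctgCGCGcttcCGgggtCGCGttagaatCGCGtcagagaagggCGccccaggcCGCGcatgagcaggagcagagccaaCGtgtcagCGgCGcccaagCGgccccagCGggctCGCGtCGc
C21orf140: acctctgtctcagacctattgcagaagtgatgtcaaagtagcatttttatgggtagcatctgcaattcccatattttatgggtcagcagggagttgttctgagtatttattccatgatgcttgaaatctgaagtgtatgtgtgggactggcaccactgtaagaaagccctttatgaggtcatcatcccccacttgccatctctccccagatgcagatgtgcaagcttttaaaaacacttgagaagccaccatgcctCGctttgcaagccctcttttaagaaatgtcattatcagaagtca
TPTE and CFAP410 are CpG-rich, with 44 and 33 CpGs and a GC content of 74% and 69.7%. KRTAP24-1 and C21orf140 hold 3 and 1 CpGs at 43.7% and 43.3% GC. The CpG-rich pair lay in the naive list and the CpG-poor pair outside it, the reverse of the medians over the long arm, where the 267 promoters in both lists held 7 CpGs and the 165 in the primed list only held 12. These 4 promoters therefore do not stand for their classes.

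Chromosome 21 was covered over 27.4 Mb (69.2%) in the naive list and over 36.4 Mb (92.1%) in the primed list. Both lists shared 27.2 Mb, the primed list alone held 9.21 Mb, the naive list alone held 0.15 Mb, and 2.99 Mb lay in neither. Of the naive sequence 99.5% was also primed, while 74.7% of the primed sequence was also naive. The naive domains of chromosome 21 thus lay almost wholly within the primed ones, which left little of the chromosome uncovered. On the long arm 99.6% of the naive sequence was also primed, where 98.6% of all sequence was primed. The overlap there is close to that of any sequence of the arm. Sequence in the naive list alone was rarer here than on any of the other 22 chromosomes analysed (1 to 22 and X). It made up 0.379% of chromosome 21, against a median of 19.4% elsewhere and a range from 0.586% on chromosome 19 to 28.4% on chromosome 13. The share of naive sequence also primed had a median of 50.5% on the others and reached 98.9% on chromosome 19.

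Mean region length differed between the states far more than median length. Naive regions of chromosome 21 had a mean length of 46.4 kb and a median of 30 kb, and primed regions a mean of 607 kb and a median of 40 kb. The primed mean rests largely on 2 regions, of 21.42 Mb and 8.06 Mb. Both means ranked first among the 23 chromosomes. The other chromosomes had mean naive lengths from 16.3 kb to 24.6 kb, and mean primed lengths from 22.8 kb to 583 kb, with chromosome 19 at the top. Regions of at least 100 kb numbered 67 in the naive list and held 43.2% of its chromosome 21 sequence, against a range of 0.705% to 15.1% on the other chromosomes. In the primed list 22 such regions held 97.1% of the sequence. At the other end, 189 naive and 15 primed regions were a single bin long.

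**Figure D1:**
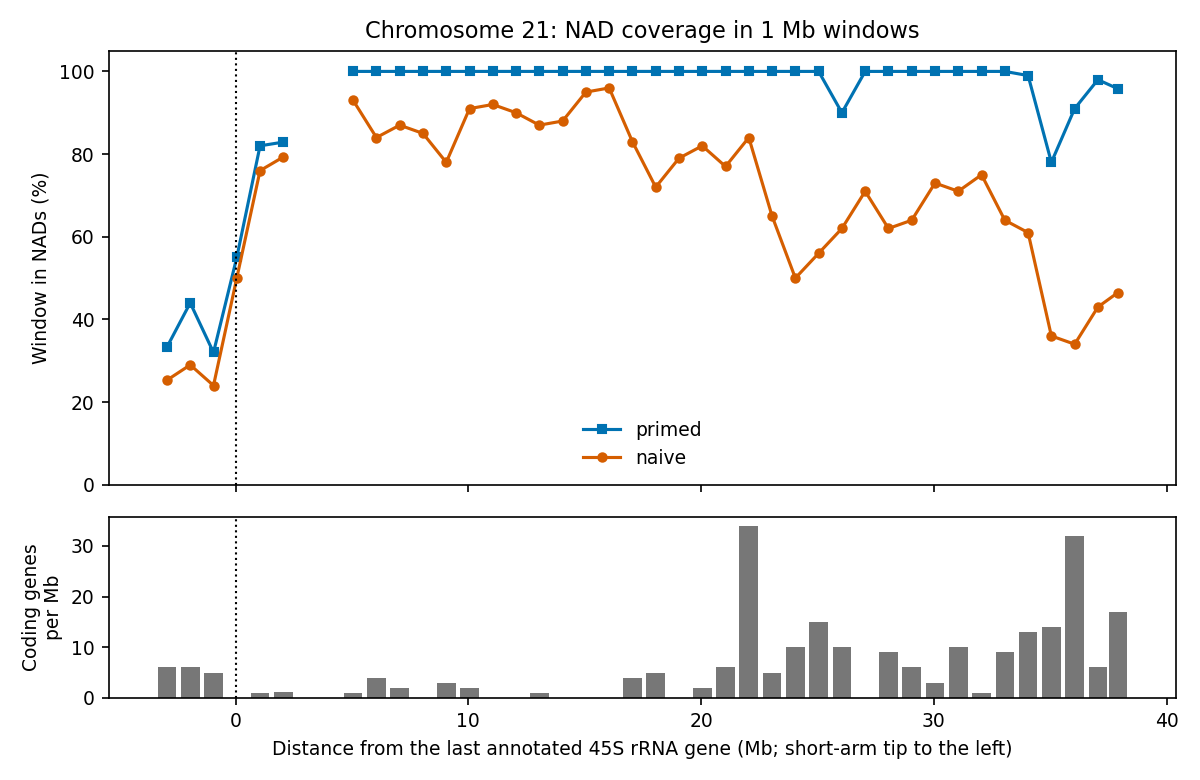
Covered percent of chromosome 21 in 1 Mb windows, naive and primed, with coding genes per Mb, against distance in Mb from the last annotated 45S rRNA gene (negative towards the tip of the short arm). Naive coverage falls along the long arm from a highest window of 96% to a lowest of 34%, while 28 of 40 windows are wholly primed and coding genes become denser towards the telomere.

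The ribosomal RNA genes themselves lay in both lists, on a short arm covered over 46.3% in the naive list and 54% in the primed list. RNA45SN1, RNA45SN2 and RNA45SN3, the 45S precursor units, were covered over 100% of their length in both states, and so were the 18S, 5.8S and 28S genes inside them. All 12 annotated rRNA genes of the short arm overlapped a region in each list. They are these units and the genes nested in them, which share bins, so they are not 12 separate observations. Their place in the lists does not test the nucleolar preparation. Reads of such repeats map to many near-identical copies, so the units cannot be told apart. Of the list of short-arm genes, 20 of 30 fixed names had coordinates on the chromosome, and 19 lay in the naive list and 19 in the primed list. The exception was MIR6724-2, a microRNA gene placed in the ribosomal DNA, which lay in neither. TPTE was at 100% in both states and BAGE2, annotated as a transcribed pseudogene, at 90.5% naive and 100% primed.

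The short arm around these genes was not evenly covered. Before the last 45S unit, 3.43 Mb were covered over 27.7% in the naive list and 36.7% in the primed list. Between that unit and the centromere, 2.38 Mb were covered over 73.1% and 79%. The side facing the tip held 4.96 coding genes per Mb and the side facing the centromere 0.84 per Mb. The 1 Mb window of lowest coverage on the whole chromosome lay on the short arm, with its midpoint 0.95 Mb from the last 45S unit on the side of the tip, at 24% naive and 32% primed. The window that holds the unit had 50% and 55%, and the next had 76% and 82%. The longest stretches in neither list also lay on the short arm, at chr21:5400001-5680000 and chr21:5690001-5970000 (280 kb each) and chr21:7430001-7640000 (210 kb). The short arm as a whole was covered over 46.3% in naive and 54% in primed cells, and 45.1% of it was in neither list. Copies of the short arm exist on the other acrocentric chromosomes, and the handling of reads with many matches was not given in the sources used here. The part of read placement in the low coverage of this arm was not tested.

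On the long arm naive coverage was high over the part nearer the centromere and lower towards the telomere. The long arm as a whole was covered over 73.1% in the naive list, by 539 regions, and over 98.6% in the primed list, by 25 regions. In its first 5.48 Mb, up to 10 Mb from the 45S unit, naive coverage was 86.1%. From 10 to 20 Mb it was 86.9%, from 20 to 30 Mb 67%, and in the last 8.27 Mb 55.1%. Primed coverage of the same segments was 100%, 100%, 99% and 95.5%. Naive coverage was thus level over the first 20 Mb and lower in each segment after that, and primed coverage stayed close to complete throughout.

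The lower naive coverage came with more and shorter regions, not with fewer. The first long-arm segment held 10.9 naive regions per Mb with a mean length of 79.3 kb, and the second 10.5 per Mb with a mean of 82.6 kb. From 20 to 30 Mb there were 19 per Mb of 35.2 kb, and beyond 30 Mb 22.2 per Mb of 24.8 kb. Naive regions of at least 100 kb numbered 16, 32, 11 and 2 in these segments, and the longest measured 490 kb, 410 kb, 190 kb and 130 kb. Coding genes numbered 2.19, 1, 9.8 and 12 per Mb in the same order, so domain length and gene density moved in opposite directions along the arm.

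Across the 34 windows of the long arm, naive coverage fell with distance from the 45S unit (Pearson r = -0.82, Spearman rho = -0.84) and with coding gene density (r = -0.6, rho = -0.78). Distance and density rose together (r = 0.53, rho = 0.65). Neighbouring windows share domains and all windows share the same libraries, so these coefficients describe the chromosome and carry no p-value. Primed coverage, complete in most windows, gave r = -0.41 with distance and r = -0.4 with density. The short arm is near the ribosomal DNA and sparsely covered. With it included, the 40 windows gave r = -0.22 (rho = -0.35) for naive coverage and distance. For primed coverage and distance they gave r = 0.46 (rho = 0.16). The fall of naive coverage with distance was thus strong on the long arm and weak over the chromosome as a whole. Over the whole chromosome it reversed to r = 0.39 when regions up to 50 kb apart were merged. Primed coverage fell with distance on the long arm only.

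The windows were also split by both measures. Within 20 Mb of the 45S unit all 15 windows held under 10 coding genes per Mb, and their naive coverage ran from 72% to 96% with a median of 87%. Beyond 20 Mb, the 10 windows of the same low density ran from 43% to 82% with a median of 68%. The 9 windows there with 10 or more coding genes per Mb ran from 34% to 84% with a median of 56%. The low-density windows near to and far from the 45S unit overlapped between 72% and 82%. Among the 25 long-arm windows under 10 coding genes per Mb, naive coverage gave r = -0.81 with distance and r = -0.73 with density. In the 15 windows within 20 Mb it gave r = -0.25 (rho = -0.17) with distance and r = -0.66 (rho = -0.59) with density. In the 19 windows beyond 20 Mb the order was the other way round, with r = -0.66 for distance and r = -0.33 for density.

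**Figure D2:**
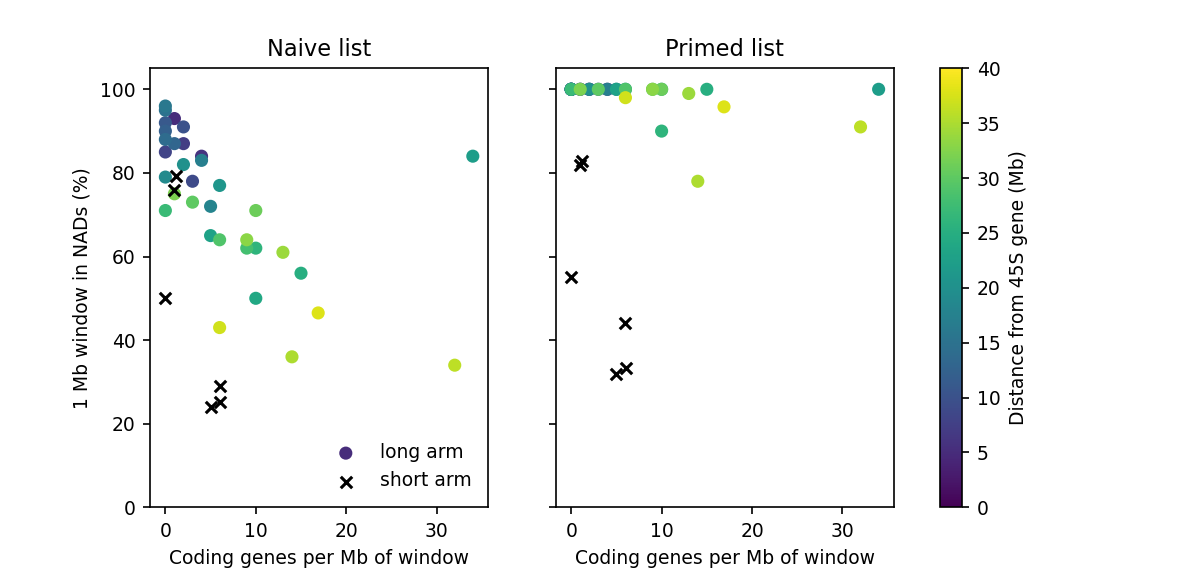
Covered percent of each 1 Mb window of chromosome 21 against its coding genes per Mb, in the naive list (left) and the primed list (right), with long-arm windows as points coloured by distance in Mb from the last 45S rRNA gene and short-arm windows as crosses. Among the long-arm points of the naive panel coverage is lower in gene-dense windows, except that the window with 34 coding genes stands at 84%. The short-arm crosses there reach down to 24%, at 5 coding genes per Mb. In the primed panel most long-arm points are at 100%.

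Windows of like gene density could differ widely, as single ones show, with distance taken to a window's midpoint. The window of highest naive coverage (96%, chr21:24000001-25000000) lay 16.05 Mb from the 45S unit, and the next highest (95%) was its neighbour at 15.05 Mb. The lowest on the long arm (34%) lay 36.05 Mb away and held 32 coding genes, with 91% primed coverage. Its neighbour at 35.05 Mb had 36% naive coverage and 78% primed coverage, the lowest primed value of the long arm. The window with the most coding genes, 34 at 22.05 Mb, had 84% naive and 100% primed coverage. Both of the gene-richest windows hold clusters of keratin-associated protein genes, and their naive coverage differed by far, 84% against 34%.

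At like gene density the long arm of chromosome 21 had more naive coverage than the median of the other chromosomes in each of 4 classes, most of all where genes are few. In its long-arm windows with under 5 coding genes per Mb (18 windows), 84.9% was naive and 100% primed. Windows of that class on the other 22 chromosomes had a median of 44.5% naive, from 32.3% to 68.9% on chromosome 22, and none of the 22 lay above chromosome 21. Their primed median was 38.4%, with a highest value of 93.4% on chromosome 20. At 5 to under 10 genes per Mb (7 windows), the long arm had 63.9% naive coverage, against a median of 38.2% elsewhere. Only chromosome 19, at 72.5%, lay above it. The other chromosomes are taken with all their windows, and chromosome 21 without its sparsely covered short arm. With the short arm, chromosome 21 had 52.6% naive and 80.8% primed coverage in this class (10 windows), and chromosome 22 at 55.4% naive also lay above it. At 10 to under 20 genes per Mb the values were 55% against a median of 37%, and again 1 chromosome, X at 55.4%, lay above. With 20 genes or more per Mb chromosome 21 had only 2 windows, at 59% naive, the mean of 34% and 84%, against a median of 41.3% on the 19 other chromosomes with such windows, where chromosome 14 at 73.5% lay above. Gene density did not track naive coverage in the same way everywhere. Over the windows of each other chromosome r lay between -0.61 on chromosome 22 and 0.19 on chromosome 1, with a median of -0.2, and it was below 0 on 19 of 22.

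**Figure D3:**
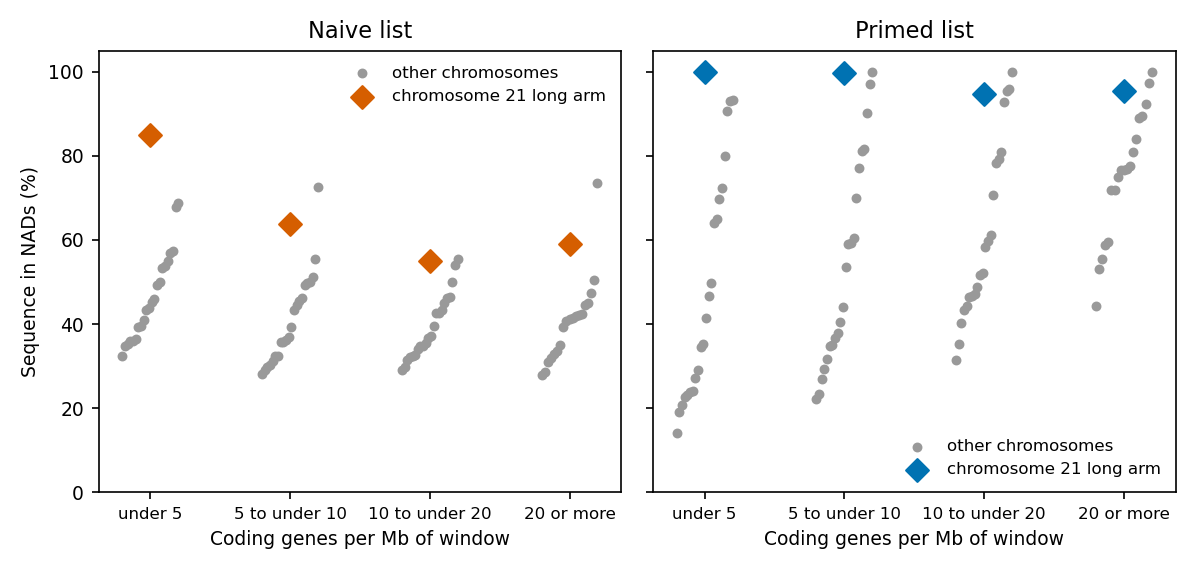
Naive and primed covered percent in 4 classes of coding gene density, with each point 1 of the other chromosomes and the diamond the long arm of chromosome 21. In the class under 5 coding genes per Mb the long arm of chromosome 21 has the highest share in both states, at 84.9% naive and 100% primed.

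The fall along the long arm was shared with the other acrocentric chromosomes in naive cells, and differed among them in primed cells. On chromosome 21 the first 10 Mb of the long arm had 87.7% naive coverage and the last 10 Mb 57.6%, a difference of 30.1 points. The same difference was 36.4 points on chromosome 13, 26.5 on chromosome 14, 32.8 on chromosome 15 and 11.9 on chromosome 22. In primed cells it was 3.7 points on chromosome 21, with 100% and 96.3% at the 2 ends. It was equally small on chromosome 14 (2.4 points) and chromosome 22 (1.9 points), but 74.5 points on chromosome 13 and 72.1 points on chromosome 15. Coding gene density rose from 1.3 to 10.8 per Mb between the 2 ends of chromosome 21. On chromosome 13 it rose from 3.9 to 5.2 per Mb, and on chromosome 22, with the smallest fall in naive coverage, it went from 12.4 to 12.6 per Mb. On chromosome 14 it fell from 14.7 to 7.6 per Mb and on chromosome 15 it was 3.1 per Mb at both ends, while naive coverage fell on each. Arms of chromosomes without ribosomal DNA were not compared in this way.

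The longest naive domains lay on the short arm and in the gene-poor part of the long arm. The longest naive region measured 520 kb (chr21:9540001-10060000) on the short arm and overlapped 10 annotated genes, none of them coding. On the long arm the longest were 490 kb (chr21:16240001-16730000) with no coding gene, 410 kb (chr21:24340001-24750000) and 350 kb (chr21:19510001-19860000). The fifth, 330 kb at chr21:15000001-15330000, reached NRIP1, a corepressor of nuclear receptors. All 5 lay wholly within the primed list.

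Primed cells carried 2 domains of megabase size that took up most of the long arm. The first reached without a break from the start of the analysed long arm over 21.42 Mb (chr21:12960001-34380000) and overlapped 366 genes, 98 of them coding. The second ran over 8.06 Mb (chr21:34500001-42560000) and held 169 genes, 51 of them coding, KCNE1, RCAN1, CLIC6 and RUNX1 first among them. Naive regions filled 81.1% of the first and 68.9% of the second. In the first, naive coverage broke into 276 stretches of 62.9 kb on average, parted by 276 gaps of 14.7 kb on average. Of these gaps 198 (71.7%) were a single bin, the longest was 70 kb, and 3 were longer than 50 kb. In the second there were 166 gaps of 15.1 kb on average, 110 of them (66.3%) a single bin and 4 longer than 50 kb. Single-bin gaps were thus the majority by number, but by sequence they made up 48.9% of the 4050 kb of naive gaps in the first domain and 43.8% of the 2510 kb in the second. The next longest primed regions were 0.94 Mb at chr21:45070001-46010000, with ADARB1, POFUT2, COL18A1 and SLC19A1, and 650 kb and 500 kb on the short arm.

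Over the whole long arm, 544 stretches were primed only, 8710 kb or 25.8% of it, and 354 of them were a single bin, which held 40.6% of that sequence. The longest, 90 kb at chr21:44360001-44450000, lay over TRPM2, a calcium-permeable channel gated by oxidative stress. The next was 80 kb at chr21:44550001-44630000, over TSPEAR and 8 keratin-associated protein genes inside it. A stretch of 70 kb at chr21:32450001-32520000 lay over EVA1C, a receptor-like membrane protein, and another of 70 kb at chr21:34110001-34180000 over MRPS6, a mitochondrial ribosomal protein. Naive-only stretches were 9 with 100 kb in all, or 0.296% of the arm. The longest, 20 kb at chr21:34480001-34500000, lay over KCNE1, a subunit of cardiac potassium channels, at the start of the second primed domain. The bin at chr21:34380001-34390000, over SMIM11, a small membrane protein gene, adjoined the end of the first.

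Coding genes followed the regions. Of the 238 coding genes of chromosome 21, 196 (82.4%) overlapped a naive region, against 76.8% of all coding genes of the 23 chromosomes. In the primed list they were 230 (96.6%), against 81.8%. Those in the primed list only numbered 34 (14.3%), near the background of 16.6%. None lay in the naive list only, where the background was 11.6%, and 8 (3.36%) lay in neither, against 6.57%. An overlap of any length counts here, so a long gene is counted more easily. By share of the gene body, the median coding gene of chromosome 21 was covered over 63% in naive and 100% in primed cells, against 35.6% and 75.8% over all coding genes. Primed regions held the whole body of 213 of the 238 genes, and naive regions that of 56.

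Few coding genes were covered more in the naive list: 4, against 169 covered more in the primed list and 65 covered equally. They were SMIM11 (67.1% naive, 32.9% primed), KCNE1 (50.8% and 39%), SIK1 (56.4% and 43.6%), a kinase related to AMPK, and CFAP410 (89.9% and 10.1%). All 4 lay at a break in the primed list. In the rest of the genome a naive share of at least 50% with a primed share under 50% was common, and 1702 of all coding genes (8.59%) had it. On chromosome 21 it was the same 4.

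The coverage of coding genes fell along the long arm in step with the windows. Within 20 Mb of the 45S unit all 22 coding genes lay in the naive list, with a median covered share of 90.3%, and all 22 were wholly primed. From 20 to 30 Mb 84 of 98 lay in the naive list with a median of 76.9%. Beyond 30 Mb 79 of 99 did, with a median of 49.2%. Short and long genes fell differently on the 10 kb grid. All 38 long-arm coding genes of at least 100 kb overlapped a naive region, with a median covered share of 70.7%. Of the 76 genes under 10 kb, 47 overlapped one and 40 were wholly covered, so most short genes were wholly in or wholly out.

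The list of proximal long-arm genes holds genes of cell adhesion, synapses and transcription. It reaches beyond the gene-poor part of the arm. RWDD2B, GRIK1 and TIAM1, among others, lie 20.57, 21.29 and 22.89 Mb from the ribosomal DNA. The segment from 20 to 30 Mb has 9.8 coding genes per Mb. Of this gene list, 32 of 33 names were found. All 32 lay in both region lists, each wholly covered in primed cells, with a naive median of 86.6%. All of them lie within the primed domain of 21.42 Mb, so their full primed coverage is that of their location. Of the 219 coding genes of the long arm, 201 (91.8%) were wholly primed, and their naive median was 66%. Over all coding genes of the chromosome, 82.4% lay in the naive list and 96.6% in the primed list. POTED, a primate-specific ankyrin-repeat gene, ABCC13, a pseudogene of a transporter, RBM11, a splicing regulator, and CXADR, the receptor of coxsackieviruses and adenoviruses, were covered over 90% or more in both states. All 4 were at 100%. The members with the lowest naive shares were HSPA13, a chaperone of the Hsp70 family (26.1%), ATP5PF, a subunit of ATP synthase (49.3%), and ADAMTS1, a secreted metalloprotease (56%). TIAM1, an exchange factor for Rac (59.2%), RWDD2B (62.5%) and MRPL39, a mitochondrial ribosomal protein (64.6%), followed. Among long neuronal genes, APP, the amyloid precursor, was at 79%, GRIK1, a kainate receptor subunit, at 84.4%, and NCAM2, an adhesion molecule, at 86.5%. APP and NCAM2 were chosen after their values were seen.

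A cluster of microRNAs lay in the second longest naive region. MIR99A, MIRLET7C and MIR125B2 sit in the introns of their host transcript MIR99AHG, 8.09 to 8.14 Mb from the 45S unit. They were covered over 100% in both states, and MIR99AHG over 93% in naive and 100% in primed cells. MIR155, known from lymphocytes and inflammation, its host MIR155HG, and MIR802, known from liver and pancreas, lay in the primed list only, at 17.1 and 27.3 Mb for the 2 microRNAs. The mature 5p forms of the cluster, and those of MIR155 and MIR802, are given from RefSeq with the seed (bases 2 to 8) in capitals, since all 5 seeds differ.
miR-99a-5p: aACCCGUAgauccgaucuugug
let-7c-5p: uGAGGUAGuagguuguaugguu
miR-125b-5p: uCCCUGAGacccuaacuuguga
miR-155-5p: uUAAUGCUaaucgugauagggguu
miR-802: cAGUAACAaagauucauccuugu
Of the microRNA list, 4 of 7 entries lay in the naive list and 7 of 7 in the primed list. Over all 29 microRNA genes of chromosome 21 the counts were 19 (65.5%) and 27 (93.1%), against 38.0% and 61.9% of microRNA genes over all chromosomes. A microRNA gene is far shorter than a bin, so its value is that of the bin it lies in.

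Keratin-associated proteins, the matrix proteins that crosslink hair keratins, are encoded in 2 clusters on the long arm, and the clusters differed in naive cells. In the cluster of 21q22.1 all 33 genes lay in the primed list and 25 in the naive list, 24 of them wholly covered. The 8 in the primed list only were KRTAP24-1, KRTAP25-1, KRTAP13-4, KRTAP19-2, KRTAP19-5, KRTAP6-1, KRTAP20-1 and KRTAP20-4. In the cluster of 21q22.3 all 16 genes lay in the primed list and 3 in the naive list: KRTAP10-1, KRTAP10-10 and KRTAP10-12, each at 100%. The median naive share was 100% in the first cluster and 0% in the second. Of all coding genes of the chromosome 82.4% overlapped a naive region and 96.6% a primed one. Neighbouring genes of a cluster share bins and are near copies of each other, so these counts stand for a few domains and not for 33 or 16 separate ones.

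**Figure D4:**
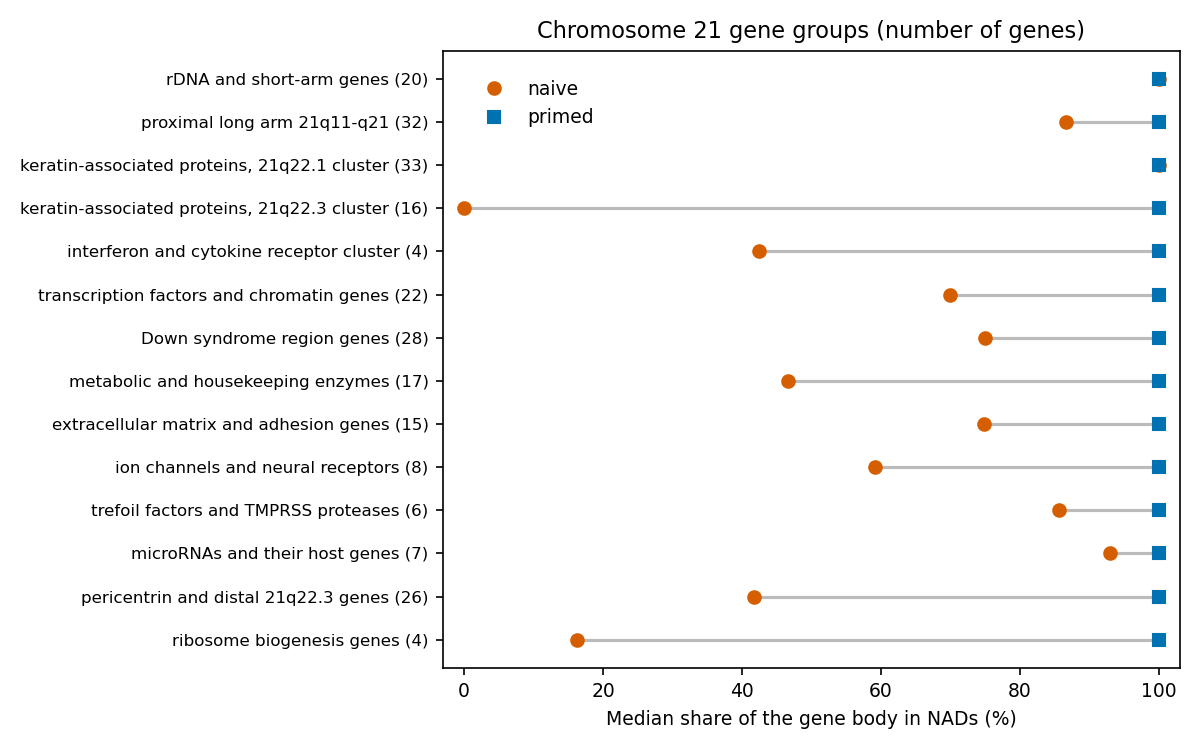
Median covered percent of the gene body for each fixed gene list on chromosome 21, naive (circles) and primed (squares), with the number of genes found. Where both medians are 100% the circle lies under the square, as for the rDNA genes and the 21q22.1 keratin-associated genes. Naive medians run from 0% for the 21q22.3 keratin-associated genes to 100%, while all 14 primed medians are 100%.

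Immune receptor and transcription factor genes of the long arm had mixed naive coverage. The 4 interferon and interleukin receptor genes, IL10RB, IFNGR2, IFNAR2 and IFNAR1, stand side by side, and all lay in both lists. Their naive shares were 23.2%, 28.9%, 56% and 100%. Of the transcription factor and chromatin genes, 22 of 23 names were found, 20 in the naive list and 21 in the primed list, with a naive median of 69.9%. Over all coding genes of the chromosome the shares were 82.4% naive and 96.6% primed, and the naive median 63%. OLIG2, a neural factor that specifies motor neurons and oligodendrocytes, was at 0% naive and 100% primed, and its neighbour OLIG1 was at 100% in both. SETD4, a methyltransferase (23%), AIRE, the thymic autoimmune regulator (32.3%), U2AF1, a splicing factor (48.2%), ETS2 (49.4%) and PRDM15 (50.7%), both transcription factors, had low naive shares. NRIP1 (90.4%), ZBTB21, a zinc finger repressor (98.5%), and HMGN1, a nucleosome-binding protein (100%), had high ones. RUNX1, the transcription factor of blood stem cells, chosen after its value was seen, was at 80%. DNMT3L, the catalytically inactive partner of the de novo DNA methyltransferases, lay in neither list.

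Of 28 genes of the so-called Down syndrome region, 27 lay in the naive list and 28 in the primed list, with a naive median of 75%. CBR1, a carbonyl reductase, was the exception, at 0% naive and 100% primed. RIPPLY3, a transcriptional corepressor, was at 28.5% naive, DOP1B at 46%, and MORC3, an ATPase of nuclear bodies, at 53.2%. PCP4, a calmodulin regulator (95.9%), and PIGP, PSMG1, a proteasome chaperone, and HMGN1 (100% each) stood at the top. DYRK1A, the kinase most studied for dosage effects in trisomy, was at 75.1%, DSCAM, a neural adhesion molecule, at 74.9%, and RCAN1, an inhibitor of calcineurin, at 86.3%. These last 3 were chosen after their values were seen. All 28 genes were wholly primed, as were 201 of the 219 coding genes of the long arm (91.8%), and their naive shares ran from 0% to 100%. The naive median of all long-arm coding genes was 66%, and 82.4% of the coding genes of the chromosome lay in the naive list.

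Of 17 metabolic and housekeeping genes, 14 lay in the naive list, the same share (82.4%) as of all coding genes of the chromosome, and 17 in the primed list. Their naive median of 46.6% was below that of all coding genes of the chromosome, 63%. ATP5PO, a subunit of ATP synthase, PFKL, the liver phosphofructokinase, and CBR1 were at 0% naive and 100% primed. NDUFV3, a complex I subunit, was at 16.5% naive, PDXK, which makes active vitamin B6, at 30.5%, and PRMT2, an arginine methyltransferase, at 14.7% naive and 82.6% primed. SOD1, the cytosolic superoxide dismutase, and CRYZL1, both at 96.7%, and PIGP, of GPI anchor synthesis, at 100%, stood against them. The fixed list of genes with a role in ribosome making, which is the work of the nucleolus, held only 4 members and does not stand for all such genes. RRP1 and RRP1B, both of large-subunit processing, were at 2.7% and 27.4% naive and 100% primed. PWP2, of small-subunit processing, was at 4.97% naive and 15.9% primed, and SNORA80A, a guide RNA for pseudouridylation, was at 100% in both. URB1, the gene that SNORA80A lies in, was not in the list and was at 76.8% naive and 100% primed.

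Genes of matrix and adhesion lay in both lists in 15 of 15 cases, with a naive median of 74.9%. Of all coding genes of the chromosome 82.4% lay in the naive list and 96.6% in the primed list, with a naive median of 63%. ITGB2, the leukocyte integrin chain, was at 9.44% naive and COL6A2 at 28.8%, while COL18A1 (50.5%) and COL6A1 (64.6%), also collagen chains, stood between. JAM2 (99.1%) and CXADR, CLDN8 and CLDN17 (100% each), all of cell junctions, were the highest. Genes of the ion channel and transport list lay in both lists in 8 of 8 cases. TRPM2 was at 10.7% naive, TRAPPC10, of vesicle transport, at 40%, SLC5A3, the inositol transporter, at 49.8%, and KCNJ6, a potassium channel, at 67.6%. Of the trefoil and TMPRSS genes 5 of 6 lay in the naive list and 6 of 6 in the primed list. TFF3 was at 0% naive and 100% primed, and TFF1 beside it was at 100% in both, with TFF2 between them in value at 78.6%. TMPRSS2, the protease that primes viral spike proteins, was at 45.6% naive and TMPRSS3 at 100%.

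The list of distal genes of 21q22.3, nearest the telomere, had a naive median of 41.7%, against 63% for all coding genes of the chromosome. All 26 lay in both region lists, where the shares over all coding genes of the chromosome were 82.4% naive and 96.6% primed. These 26 are a choice and do not stand for all distal genes. Of all 99 coding genes beyond 30 Mb, 79 lay in the naive list, with a naive median of 49.2%. PFKL, TFF3, DNMT3L and most genes of the 21q22.3 keratin-associated cluster, at 0% naive, were not among the 26. RRP1, TRPM2, PRMT2, CRYAA (a lens crystallin, 26.1%), RRP1B and UMODL1 (28.7%) differed most between the states. CSTB, a protease inhibitor, and S100B, a calcium-binding protein of glia, were at 100% in both, and UBE2G2, of protein degradation, at 95.7% naive. S100B lies 38.16 Mb from the 45S unit, next to PRMT2 at 38.2 Mb and 14.7% naive, so high and low naive coverage stood side by side near the telomere.

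Genes that code for no protein were also in the lists more often than their kind over all chromosomes. Of 317 long non-coding RNA genes of chromosome 21, 249 (78.5%) lay in the naive list, against a background of 62.9%, and 297 (93.7%) in the primed list, against 64.7%. Pseudogenes numbered 206, with 152 (73.8%) naive against 44.9% and 200 (97.1%) primed against 53.2%. Small nucleolar RNA genes were few, with 10 of 18 (55.6%) naive against 44.7% and 18 of 18 primed against 60.4%. Most of these genes lie on the long arm, where 73.1% of the sequence was naive and 98.6% primed.

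Within 30 Mb of the 45S unit on the long arm, promoters in both lists were poorer in GC than those in the primed list only, which was not so beyond it or on the short arm. RefSeq promoters on chromosome 21 numbered 488, for 388 genes. Of them 296 (60.7%) lay in the naive list, against 41.5% of promoters over all chromosomes, and 463 (94.9%) in the primed list, against 61.9%. On the long arm 267 of 444 lay in both lists, with a median of 51.3% GC and 7 CpGs in the 300 bases. The 165 in the primed list only had a median of 61% GC and 12 CpGs, and 5 lay in the naive list only and 7 in neither. Within 20 Mb of the 45S unit, promoters in both lists had a median of 40.7% GC and those primed only 50.3%. From 20 to 30 Mb the medians were 47% and 60.3%. Beyond 30 Mb both were 63.3%, and the CpG median was higher for promoters in both lists, 17 against 11. On the short arm the 22 promoters in both lists had 65% GC and 26 CpGs, and the 9 in the primed list only had 64% and 16. The base content of a library can itself shift the reads per bin, and its part in these values was not tested.

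What little the primed list left out of the long arm was short and mostly distal. There were 24 primed gaps with 470 kb in all, 1.39% of the arm, and 16 of them were a single bin. None lay inside the 21.42 Mb domain, by its definition. In neither list were 19 stretches with 370 kb. The longest were 70 kb at chr21:43500001-43570000, with HSF2BP, a meiotic recombination factor, and H2BC12L, a histone H2B gene. Next came 50 kb at chr21:34390001-34440000, with C21orf140 and SMIM34, and 50 kb at chr21:43210001-43260000. A stretch of 30 kb at chr21:44240001-44270000 lay over ICOSLG, the ligand of a T cell costimulator, and DNMT3L. The 8 coding genes in neither list were C21orf140, SMIM34, LOC124900467, H2BC12L and DNMT3L on the long arm, and LOC124905051, LOC107987288 and LOC124905049 on the short arm. DNMT3L spans chr21:44246339-44261897, an interval outside both lists, and its neighbour ICOSLG had 41.7% naive and 96.1% primed coverage.

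Several of these genes have copies on the short arm of the same chromosome in the assembly. Comparing the 44 short-arm promoters with the 444 long-arm promoters gave 19536 pairs, of which 10 differed at 60 or fewer of 300 bases, and the next closest at 73. The promoters of C21orf140, SMIM34, CRYAA and SIK1 had exact copies. Those of CBS, a cystathionine synthase, and U2AF1 differed from theirs by 1 base, GATD3 by 3 and PWP2 by 9. ICOSLG differed by 46 and SMIM11 by 54. For 3 of the pairs, 60 bases of each promoter are set side by side from RefSeq, on the gene's own strand, with a differing base in capitals. CBS lies at chr21:43075923-43075982 (minus strand) and its copy LOC102724560 at chr21:6467601-6467660 (minus strand), and they differ by G134C. U2AF1 lies at chr21:43107530-43107589 (minus strand) and LOC102724594 at chr21:6499208-6499267 (minus strand), and they differ by A262C. SIK1 lies at chr21:43427102-43427161 (minus strand) and LOC102724428 at chr21:6111101-6111160 (plus strand), with no difference. Positions count from 1 at the 5′ end of the 300-base promoter, and the long-arm base comes first. These 3 pairs are among the closest of the 10.
CBS: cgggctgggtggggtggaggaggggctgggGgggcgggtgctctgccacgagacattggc
LOC102724560: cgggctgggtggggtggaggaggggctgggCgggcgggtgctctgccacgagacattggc
U2AF1: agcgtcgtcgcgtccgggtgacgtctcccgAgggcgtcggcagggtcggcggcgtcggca
LOC102724594: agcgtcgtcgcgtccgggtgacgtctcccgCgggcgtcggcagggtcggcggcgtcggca
SIK1: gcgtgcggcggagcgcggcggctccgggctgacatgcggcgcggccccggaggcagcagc
LOC102724428: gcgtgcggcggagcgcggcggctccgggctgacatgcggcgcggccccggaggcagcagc
Reads that match both copies can be placed on either, so the coverage of near-identical copies is uncertain. Only promoters were compared, so the likeness of gene bodies and flanks was not measured.

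The copied genes held a large part of the primed gaps. Their bodies with 20 kb on each side made up 1.45% of the long arm (49 bins) and held 17 of its 47 bins outside the primed list (36.2%). Of these 49 bins 40.8% were naive and 65.3% primed, against 73.6% and 99.1% of the other 3326 bins. Beyond 30 Mb, where most copied genes lie, 41% and 71.8% of 39 such bins were covered, against 55.8% and 96.7% of the other 788. On the short arm the copies did not stand out in the same way, with 43.8% and 70.8% of 48 bins covered against 46.5% and 52.5% of the other 533. Of the 24 primed gaps, 5 touched a copied gene (140 kb) and 8 lay within 20 kb of one. SMIM11 and SIK1, 2 of the 4 coding genes covered more in the naive list, are among the copied genes, and KCNE1 has a short-arm copy by its annotated synonym KCNE1B. Whether read placement lowered the coverage of these genes was not tested.

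Several copies differed in coverage from the long-arm gene, and others were alike. SIK1 was at 56.4% naive and 43.6% primed, and its copy at 0% and 100%. C21orf140 was at 0% in both, and its copy at 0% naive and 100% primed. CBS was at 29% and 57.8%, and its copy at 100% and 100%. PWP2 was at 4.97% and 15.9%, and its copy at 19.6% and 100%. GATD3 was at 100% in both lists, as was its copy, and U2AF1, at 48.2% naive and 100% primed, was close to its copy at 36.8% and 100%. In the primed list the short-arm copy was covered as much as or more than the long-arm gene in each of these pairs, but CRYAA, at 100% primed against 69.4% for its copy, and ICOSLG, at 96.1% against 69.1%, went the other way. DNMT3L starts 5.395 kb from ICOSLG, and LOC124905051 ends 5.372 kb from the ICOSLG copy. Both of these genes were in neither list. DNMT3L had no entry in the promoter table used.

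**Figure D5:**
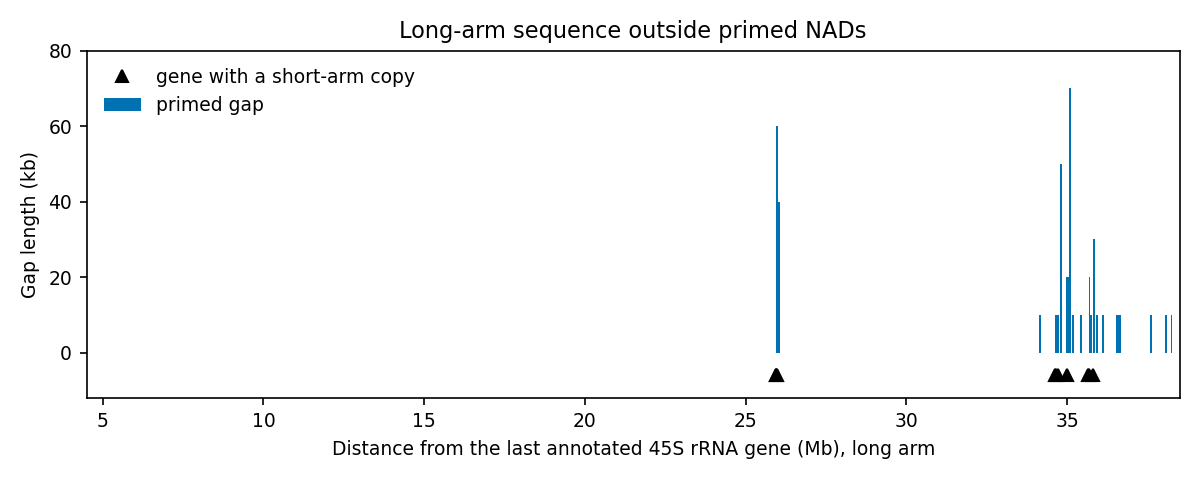
Stretches of the long arm of chromosome 21 outside the primed list, with 1 bar per gap at its distance in Mb from the last 45S rRNA gene, its height the gap's length in kb and its width fixed and not to scale. Triangles mark genes with a short-arm copy. No gap lies in the first 21.42 Mb of the arm, and 8 of 24 gaps lie within 20 kb of a copied gene.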

How the data were processed

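For each state the authors deposited a single region list on hg38, tied per the labels to 6 libraries, whose rows give only a position (chromosome, first and last base) and no other value. The submitters' processing notes name SICER, BWA and SAMtools 1.10, with no role or setting. Coverage was counted in 10 kb bins (Python 3.11.15, scipy 1.17.1, pandas 2.3.3, numpy 2.4.6), after stretches of at least 500 kb with no region and no gene were left out. The interval code was tested on simulated data. Windows of 1 Mb needed 0.5 Mb analysed, and correlations used the distance without its sign.

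Genes and promoters came from RefSeq tables of GRCh38.p14, the assembly of hg38. Of the chromosome 21 genes, 11 with scaffold coordinates were left out (679 over all chromosomes). Promoters were compared with edlib 1.3.9.post1, and figures drawn with matplotlib 3.10.9.

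The regions and the 14 gene lists (250 names) were chosen with earlier results of these data known. Named are, per list, up to 6 members with the largest difference between states, up to 4 covered over 90% or more in both, and every member in neither, besides coding genes in neither list and those of the named regions (the 5 longest of each list, the 3 longest stretches of each kind, and the extreme windows). The comparison of copies was added after the data had been seen. No p-value was computed.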

Additional observations from a re-analysis of the deposited data

How the results depend on the processing

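Of 47 alternative values, 27 were counted as unchanged, 17 as moved and 3 as changed in sign. The naive coding gene counts were among those counted as unchanged, although they ran from 141 to 222 against a main value of 196. The naive count thus depends on the overlap rule. Keeping the empty stretches gave 58.6% naive and 78.0% primed coverage. The long arm alone gave 73.1% and 98.6%. Merging regions up to 50 kb apart gave 91.5% and 94.1%, with 99.7% of naive sequence also primed. Leaving out regions of 1 bin gave 64.4% naive coverage. The correlation of naive coverage with distance was -0.32 in 2 Mb windows, -0.82 on the long arm alone and, reversed, 0.39 after merging. That of primed coverage with distance reversed to -0.41 on the long arm. Naive coverage with gene density gave -0.6 in 2 Mb windows, -0.6 on the long arm and -0.08 after merging, and primed coverage with density -0.4 on the long arm. Merging on the long arm alone, chosen after seeing the data, gave -0.53 and -0.24 with distance and -0.57 and -0.17 with density, for naive and primed coverage, so the naive fall along this arm was smaller there but kept its sign. Requiring 50% of the gene body gave 141 naive and 223 primed coding genes. Without the copied genes and their 20 kb flanks, also chosen after seeing the data, coverage was 69.8% and 92.7%. No paired analysis was possible because each state has 1 list and no comparison was tested. The lists hold no depth, so what depth limits could not be measured.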
